A study of Mus musculus with 4 samples.

Results

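The interferon response genes described here are 9 genes, Ifit1, Ifit2, Ifit3, Irf7, Stat2, Isg15, Oas2, Usp18 and Bst2, out of 18820 genes that had a probe set of their own on the array. They were listed by name as genes that interferons induce, with earlier results of these data known. All 9 were measured, each by 1 probe set paired with no other gene, so that no choice between probe sets had to be made. Adult male Azin2 KO and WT mice were compared with 2 arrays per genotype (Affymetrix Mouse Gene 1.1 ST), and RNA from whole testes of 3 mice was pooled for every array. In KO mice, which have a mixed C57BL/6 background, a β-Geo cassette interrupts the Azin2 locus, and a fusion of truncated Azin2 with lacZ is expressed from it. AZIN2 is an antizyme inhibitor that raises polyamine synthesis and uptake. No treatment of these mice is named in the labels.

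Type I interferons are secreted when a cell senses foreign nucleic acid, and they act through a receptor of Ifnar1 and Ifnar2 subunits. The kinases Jak1 and Tyk2 then phosphorylate Stat2, which together with Irf9 forms part of a complex that binds the interferon-stimulated response element (ISRE) before the start of many genes. Interferon gamma acts mainly through another element, the gamma-activated site (GAS). In the rat testis, Sertoli and Leydig cells in culture are known to produce interferons when exposed to a virus, and several of the genes above are also expressed at a low level without any stimulus.

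The sequence before the RefSeq start of a gene was available for 7 of the 9 genes, and Oas2 and Usp18 had no entry. Each window of 250 bases (GRCm38.p6) was searched on both strands for a GAAA followed, after any 2 bases, by another GAAA, the core of the ISRE, and for TTCNNNGAA, the core of the GAS, with overlapping matches counted. The ISRE letters were found in 5 of the 7 genes (71.4%), against 936 of 27025 genes in the whole table (3.46%). The windows of Irf7 and Ifit2 held none and are left out. The 5 windows with ISRE letters are shown. They run 5′ to 3′ along the gene and end at the base before its start, and capitals mark the ISRE letters, which read as TTTC, 2 bases and TTTC where the match is on the opposite strand.
Ifit1 promoter, chr19:34640639-34640888, plus strand: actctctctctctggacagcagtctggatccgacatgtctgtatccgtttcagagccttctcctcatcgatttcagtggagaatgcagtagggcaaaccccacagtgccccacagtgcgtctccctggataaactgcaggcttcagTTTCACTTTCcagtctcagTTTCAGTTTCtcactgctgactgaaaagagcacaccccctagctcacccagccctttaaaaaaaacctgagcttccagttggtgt
Ifit3 promoter, chr19:34583279-34583528, plus strand: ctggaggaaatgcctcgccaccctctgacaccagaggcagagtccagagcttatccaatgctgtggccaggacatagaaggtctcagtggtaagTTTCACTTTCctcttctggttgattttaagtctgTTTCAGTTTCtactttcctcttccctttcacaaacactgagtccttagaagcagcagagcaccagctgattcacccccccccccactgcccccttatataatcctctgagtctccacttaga
Isg15 promoter, chr4:156200819-156201068, minus strand: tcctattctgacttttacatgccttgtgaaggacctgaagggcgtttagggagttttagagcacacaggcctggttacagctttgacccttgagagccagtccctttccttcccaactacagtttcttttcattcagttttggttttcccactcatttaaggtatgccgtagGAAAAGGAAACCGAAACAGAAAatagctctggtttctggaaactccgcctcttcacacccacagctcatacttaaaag
Bst2 promoter, chr8:71537473-71537722, minus strand: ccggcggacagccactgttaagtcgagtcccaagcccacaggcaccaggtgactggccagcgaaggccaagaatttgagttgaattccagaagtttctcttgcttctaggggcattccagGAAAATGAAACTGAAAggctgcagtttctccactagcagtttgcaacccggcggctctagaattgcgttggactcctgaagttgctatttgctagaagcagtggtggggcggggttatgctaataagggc
Stat2 promoter, chr10:128270248-128270497, plus strand: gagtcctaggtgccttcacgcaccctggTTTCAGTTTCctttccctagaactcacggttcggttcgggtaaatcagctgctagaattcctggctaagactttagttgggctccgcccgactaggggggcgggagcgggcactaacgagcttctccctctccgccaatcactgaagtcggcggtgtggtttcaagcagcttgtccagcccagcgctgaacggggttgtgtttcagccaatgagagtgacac

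Ifit1 and Ifit3, neighbouring genes on chromosome 19, carried the same pair of ISRE letters in the same order, TTTCACTTTC followed by TTTCAGTTTC. The pair lay 104 to 95 and 85 to 76 bases before the start of Ifit1, and 156 to 147 and 122 to 113 bases before the start of Ifit3. Isg15 held 3 overlapping matches 78 to 57 bases before its start, and Bst2 held 2 overlapping matches 130 to 115 bases before its start. The single match of Stat2 lay 222 to 213 bases before its start. No ISRE letters were in the window of Irf7 or in either of the 2 windows of Ifit2. The GAS letters were found once in Ifit2, 241 to 233 bases before the start, and once in Bst2, 136 to 128 bases before the start, in 2 of 7 genes against 8.13% of all genes. A match of letters is not a measured binding site.

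**Figure D1:**
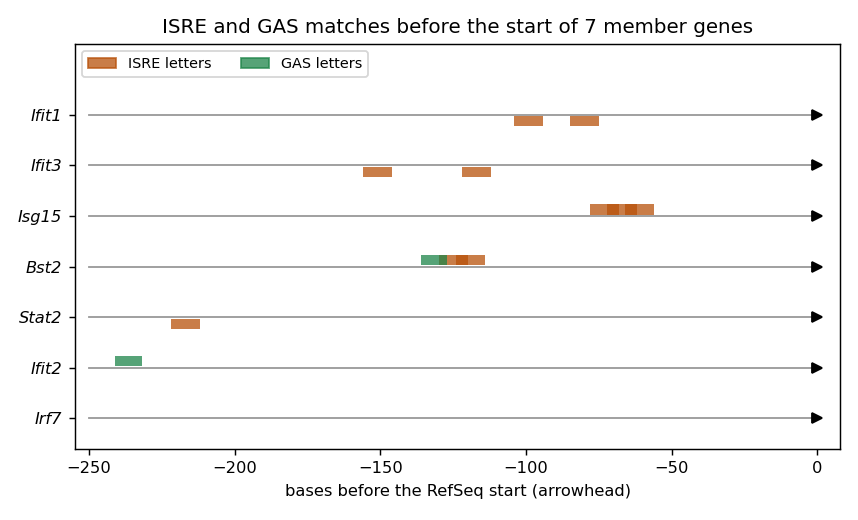
Positions of the ISRE letters (orange) and GAS letters (green) in the 250 bases before the RefSeq start of 7 interferon response genes; the x axis gives bases before the start, with the arrowhead at the start, and boxes above or below a line are matches on the gene's own or the opposite strand. Ifit1, Ifit3, Isg15, Bst2 and Stat2 hold ISRE letters, 4 of them more than once.

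The array values are normalized log2 signals, on which a difference of 1 is a doubling, and they include background hybridization, so that differences of dim genes may be understated. Medians of the 4 arrays ranged from 6.08 to 6.11, and the SD of the difference between any 2 arrays ranged from 0.156 to 0.181. For the pair of KO arrays it was 0.170 and for the pair of WT arrays 0.166. Azin2 itself was at 7.36 and 7.14 in KO testes, against 10.16 and 10.00 in WT testes, a log2 difference of -2.83 (standard error 0.10, adjusted p = 0.025, limma), and was the only one of 23099 named probe sets to pass an adjusted p of 0.05. Testis markers were bright on every array, with the spermatid gene Prm1 between 12.33 and 12.40 and the Leydig cell gene Cyp17a1 between 12.11 and 12.20.

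None of the 9 interferon response genes passed an adjusted p of 0.05, where 0.00531% of the 18820 genes did. Ifit1, Ifit3 and Usp18 had lower values in both KO pools than in both WT pools, with log2 differences of -0.37, -0.34 and -0.28. The other 6 genes overlapped between the genotypes, with differences from -0.08 to 0.05. The median difference of the 9 genes was -0.04, against 0.01 over all genes. Signals of 5 of the 9 genes (Ifit1, Ifit2, Irf7, Isg15 and Oas2) lay below the median of the array on all 4 arrays. Those of Ifit3 and Usp18 lay below it on every array but WT replicate 2.

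Among the effectors, Ifit1 encodes a protein that binds foreign RNA lacking the methylated cap of the cell's own mRNA and blocks its translation. Its signal was 4.70 and 4.73 in the KO pools, against 4.97 and 5.19 in the WT pools. The KO pools lay close together and below both WT pools, of which replicate 2 was the higher. The log2 difference was -0.37 (standard error 0.08, 95% confidence interval -0.58 to -0.15), which is a signal 22.5% lower in KO testes. Ifit1 was dim, at levels like those of Siglech (4.90 to 4.99), a marker of plasmacytoid dendritic cells. How much of the signal of Ifit1 was background was not tested. By limma its unadjusted p was 0.00706 and its adjusted p 0.9995, and it ranked 86th of 18820 genes by p and 72nd by the size of a lower value in KO. Without WT replicate 2 the difference was -0.26.

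Ifit3 encodes a related protein, which in humans strengthens RNA binding by IFIT1. It was at 5.92 and 5.69 in KO testes, against 5.97 and 6.32 in WT testes. KO replicate 1 and WT replicate 1 thus lay 0.05 apart, and the difference between the means came mainly from KO replicate 2, the lowest, and WT replicate 2, the highest. The log2 difference was -0.34 (standard error 0.14, 95% confidence interval -0.70 to 0.02, unadjusted p = 0.0612, adjusted p = 0.9995 by limma). The pools of a genotype were 0.23 apart in KO and 0.35 apart in WT, where the median gene differed by 0.066 between the KO pools and by 0.068 between the WT pools. Leaving out WT replicate 2 gave a difference of -0.16.

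Ifit2, the third of these neighbours, encodes a protein that binds double-stranded RNA. Its signal was 4.27 in both KO pools, against 4.26 and 4.43 in the WT pools. WT replicate 1 was therefore level with KO, and only WT replicate 2 stood above it. The log2 difference was -0.08 with a standard error of 0.07. Ifit3b, the near-identical neighbour of Ifit3, had a probe set of its own at 4.23 and 4.30 in KO testes, against 4.23 and 4.26 in WT testes. The lower values of Ifit3 were not seen there. Ifit3b was about as dim as the lymphocyte marker Ms4a1 (4.22 to 4.24), so its probe set could show little decrease. RNA of the 2 copies may cross-hybridize, which was not tested.

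Bst2, or tetherin, holds budding enveloped virus at the cell surface. It was at 6.78 and 6.88 in KO testes, against 6.90 and 6.84 in WT testes, a log2 difference of -0.04 (standard error 0.06). The KO and WT pools were interleaved. Oas2, which makes the oligoadenylates that activate RNase L, was at 5.09 and 5.14 in KO testes and 5.10 and 5.08 in WT testes. Its difference of 0.03 had the smallest standard error among the 9 genes, 0.05.

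Isg15 encodes a ubiquitin-like protein that is attached to other proteins during an interferon response, and its gene lies on chromosome 4, as Azin2 does. It was at 5.09 and 4.92 in KO testes, against 4.99 and 5.06 in WT testes. Both WT values lay between the KO values, and the log2 difference was -0.02 (standard error 0.08). Usp18 removes Isg15 from proteins and, bound to Ifnar2, shuts off the type I receptor. It was at 5.96 and 5.70 in KO testes, against 5.98 and 6.24 in WT testes, with the order of the 4 arrays that Ifit3 showed and again only 0.02 between KO replicate 1 and WT replicate 1. The log2 difference of Usp18 was -0.28 (standard error 0.13, 95% confidence interval -0.61 to 0.04, unadjusted p = 0.0761, adjusted p = 0.9995 by limma), which is a signal 17.8% lower in KO testes. Without WT replicate 2 it was -0.15.

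The 2 transcription factors among the 9 genes overlapped between the genotypes. Stat2, a subunit of the complex that binds the ISRE, was at 6.41 and 6.53 in KO testes, against 6.39 and 6.44 in WT testes, a log2 difference of 0.05 (standard error 0.06). Irf7, which drives the genes of interferon alpha and is itself induced by interferon, was at 5.16 and 5.36 in KO testes, against 5.18 and 5.30 in WT testes. The WT values of Irf7 lay between the KO values, with a log2 difference of 0.02 (standard error 0.09).

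**Figure D2:**
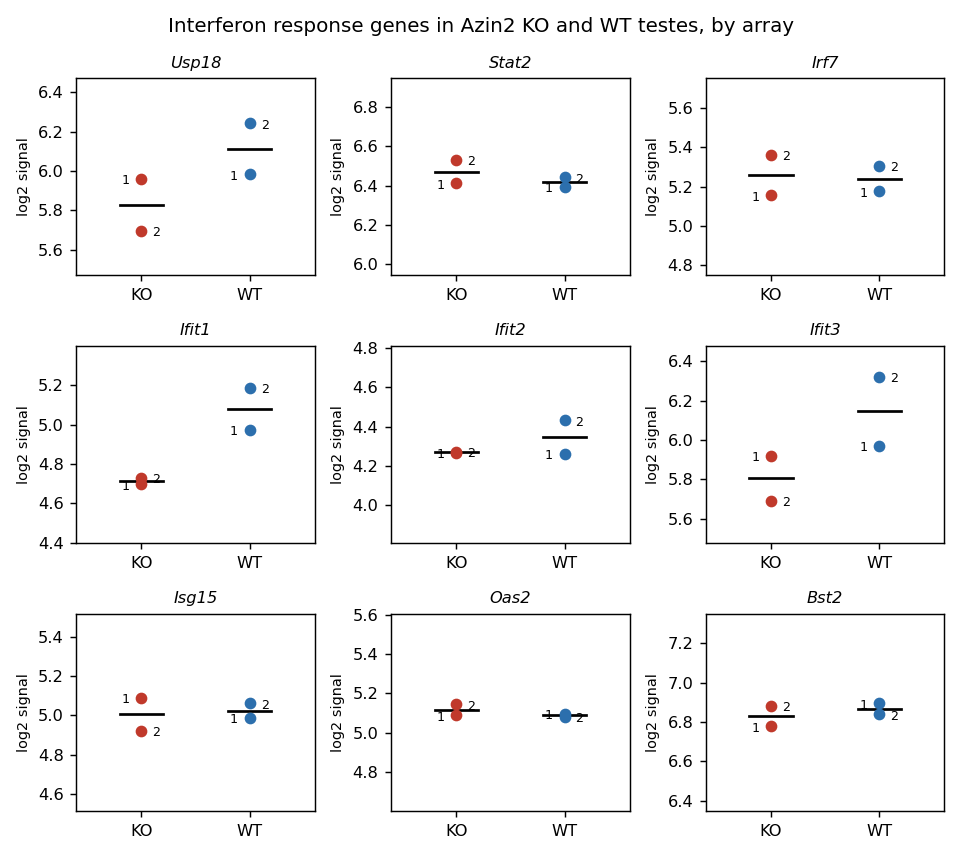
Normalized log2 signal of the 9 genes on each array, with KO pools (red) to the left of WT pools (blue), the replicate number beside each point and a bar at the mean; every panel spans the same height on the log2 axis, which does not start at 0. The KO and WT points separate in Ifit1, Ifit3 and Usp18 and overlap in the other 6 genes.

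The 95% confidence intervals of the 6 overlapping genes ran at most from -0.26 to 0.25. A difference in signal of more than 1.20-fold thus lay outside the interval of each. These genes were set apart by their overlap in the same data, which favours differences near 0. Ifit2, Irf7, Isg15 and Oas2 among them were dim, so that background may understate their differences. These intervals rest on 2 pools per genotype and on the spread that limma shares between genes. The intervals of Ifit3 and Usp18 included both 0 and a fold of 1.5. Among the 9 genes, 3 (33.3%) had KO pools entirely below WT pools, as did 12.2% of all genes, and none had KO pools entirely above, as did 20.3%. None reached a fold of 1.5 with an unadjusted p under 0.05, where 0.0956% of all genes did. A log2 difference of -0.2 or lower was found in the same 3 genes and in 1.97% of all genes. This cut-off was not among the planned counts. It falls between Usp18 at -0.28 and Ifit2 at -0.08, so the count restates the 3 differences given above. A lower mean in KO testes with an unadjusted p under 0.05 was found in 1 of the 9 (11.1%), Ifit1, and in 1.77% of all genes.

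**Figure D3:**
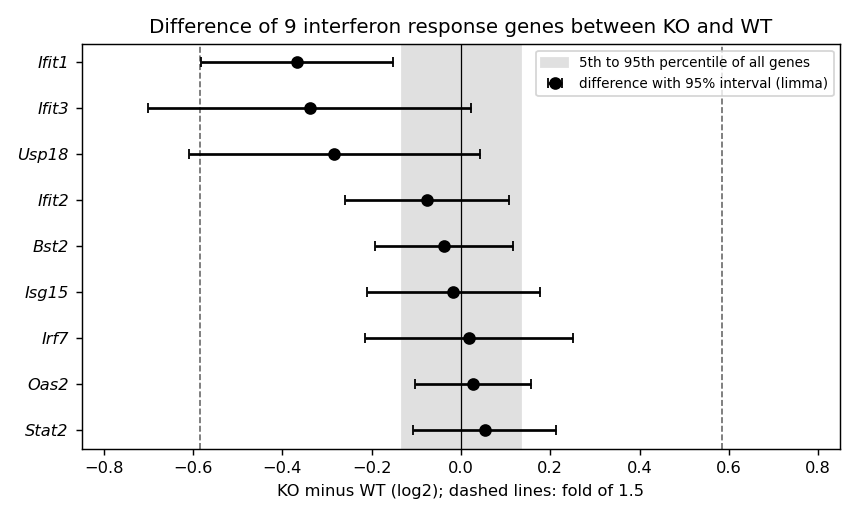
Log2 difference (KO minus WT, x axis) of the 9 genes with the 95% confidence interval from limma; the grey band spans the 5th to 95th percentile of all genes and dashed lines mark a fold of 1.5. Ifit1, Ifit3 and Usp18 lie below the band, and the interval of Ifit1 alone leaves out 0.

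The 3 genes with the lowest differences did not share 1 pattern over the arrays. Relative to its mean over the 4 arrays, Ifit1 was at -0.20 and -0.17 in KO testes and 0.08 and 0.29 in WT testes. Ifit3 was at -0.06 and -0.28 in KO testes and -0.01 and 0.34 in WT testes, and Usp18 at -0.01 and -0.28 in KO testes and 0.01 and 0.27 in WT testes. As Euclidean distances between these profiles, Ifit3 and Usp18 were 0.089 apart, while Ifit1 was 0.211 from Ifit3 and 0.230 from Usp18. WT replicate 2 was the highest array in 4 of the 9 genes, KO replicate 1 the lowest in 3 and KO replicate 2 the lowest in another 3. Summed on the linear scale, the signals of the 9 genes were 467 in each KO pool, against 482 and 522 in the WT pools. Bright genes weigh most in such a sum. The equal KO sums held changes in both directions from KO replicate 1 to KO replicate 2, between -0.27 for Usp18 and 0.21 for Irf7.

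Outside the 9 genes, those with profiles nearest to the members' median profile were Ankmy1, Agap1, Sdf2, Efcab8 and Kcnc1, at Euclidean distances between 0.0149 and 0.0159 over the 4 arrays. Their log2 differences lay between -0.07 and -0.06. The median profile is nearly flat, and 4 arrays leave many genes at such distances.

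Whole testis holds several cell types that respond to interferon, and fewer cells of a type and less RNA per cell cannot be told apart in these pools. Of 12 macrophage markers 11 were measured, with a median log2 difference of -0.15. A lower mean in KO testes was found in 8 of them (72.7%), against 43.4% of all genes. KO pools lay entirely below WT pools in 1 of the 11 (9.09%), against 12.2% of all genes. Lyz2, the lysozyme of myeloid cells, was at 8.73 and 9.03 in KO testes, against 9.29 and 9.59 in WT testes (log2 difference -0.56, standard error 0.14, unadjusted p = 0.0117, limma). Cd14, a receptor for bacterial lipopolysaccharide, was the only other macrophage marker without overlap and went the other way, at 4.75 and 4.90 in KO testes, against 4.50 and 4.69 in WT testes (log2 difference 0.23, unadjusted p = 0.0516, limma). C1qc and Cx3cr1 also had a higher mean in KO testes, by 0.05 and 0.07. Summed on the linear scale, macrophage markers were at 2121 and 2569 in KO testes, against 2462 and 2971 in WT testes. WT replicate 2 was thus highest and KO replicate 1 lowest, each in 8 of the 11 markers. Ifit1 had both features, though its KO pools were only 0.03 apart. Ifit3 and Usp18 were highest in WT replicate 2 too but were lowest in KO replicate 2, which was the lowest array for 0 of the 11 markers. The part of macrophages in the lower values of the 3 interferon response genes was not tested.

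Lymphocyte, neutrophil and monocyte markers were dim. In the lymphocyte list 9 of 10 measured genes, and in the neutrophil and monocyte list all 5, lay below the median of every array, with median differences of 0.04 and 0.03. Their brightest markers were Cd3e, a T cell receptor subunit, with a difference of 0.09, and Plac8, with 0.03, and Mpo, the peroxidase of neutrophils, had a difference of 0.20 (unadjusted p = 0.0355, limma). The 5 measured markers of plasmacytoid dendritic cells, a major source of type I interferon, were mixed. Siglech, which defines these cells in mice, was at 4.90 and 4.99 in KO testes and 4.93 and 4.97 in WT testes, and was thus dim on all 4 arrays. Tcf4, a transcription factor of many cell types and the brightest of the list, had a difference of -0.02. Ly6d was at 6.59 and 6.25 in KO testes, against 8.41 and 6.92 in WT testes, a log2 difference of -1.24 (standard error 0.49, unadjusted p = 0.0512, limma), with WT replicate 1 far above the other arrays. The 8 endothelial markers had a median difference of -0.06, the brightest being Cdh5 at -0.07. A lower mean in KO testes was found in 7 of them (87.5%), against 43.4% of all genes.

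All 7 Sertoli cell markers had a higher mean in KO testes, with a median difference of 0.11, and the brightest, Cldn11, was at 0.06. Relative to the mean over the arrays, their median was -0.03 and 0.12 in KO testes, against 0.02 and -0.15 in WT testes, so that WT replicate 2, the highest array for Ifit1, Ifit2, Ifit3 and Usp18, was low for Sertoli cell markers. All 5 measured Leydig cell markers had a lower mean in KO testes, with a median difference of -0.08, and KO replicate 1 was the lowest array in each. None of these 12 markers had an unadjusted p under 0.05 by limma, and 43.4% of all genes had a lower mean in KO testes. The part of these cell types in the values of the interferon response genes was not tested.

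**Figure D4:**
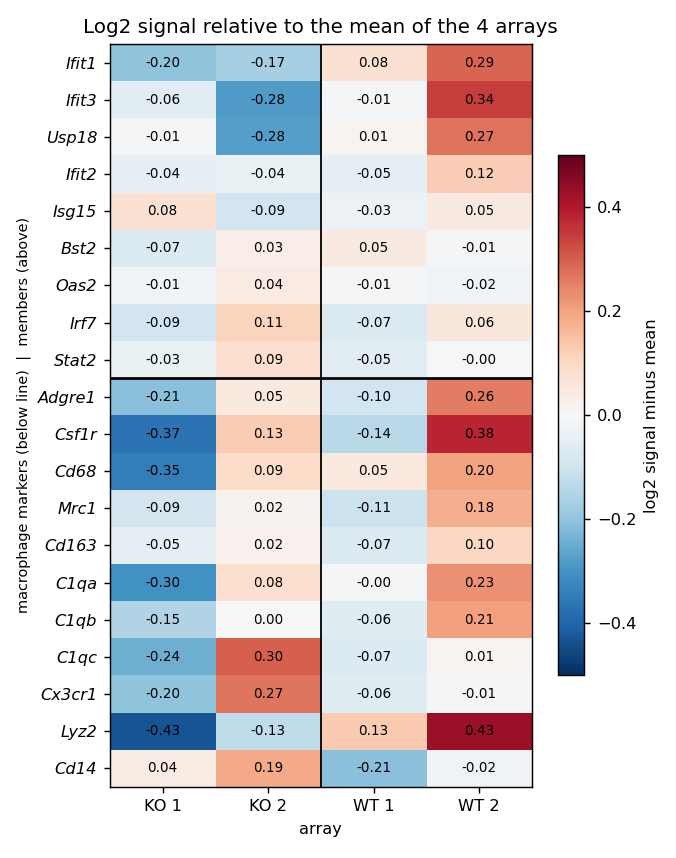
Log2 signal of the 9 interferon response genes (above the line) and 11 macrophage markers (below it) on each array, relative to the gene's mean over the 4 arrays, with KO arrays to the left of WT arrays. Ifit3 and Usp18 are lowest in KO replicate 2 and highest in WT replicate 2, whereas 8 of the 11 macrophage markers are lowest in KO replicate 1.

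A wider list of 157 interferon pathway genes was examined to see whether the lower values of Ifit1, Ifit3 and Usp18 extended to other steps. Of these genes 136 had a probe set of their own. None passed an adjusted p of 0.05, and their log2 differences ran from -0.24 to 0.16 with a median of 0.01, against 0.01 for all genes. The difference was negative in 64 and positive in 72 of them. KO pools lay entirely below WT pools in 18 genes (13.2%) and entirely above in 27 (19.9%), near the shares of 12.2% and 20.3% among all genes. Xaf1 and Ube2l6 (1.47%) had an unadjusted p under 0.05 by limma, both with lower values in KO testes. Among all genes 1.77% had such a p with a lower mean in KO, so this share was not above that background. By the probe set that gave each gene's value, no gene of this list reached the size of difference seen for Ifit1, Ifit3 or Usp18. Some of their other probe sets did, such as a probe set of Nlrc5 at -0.40 and a shared probe set of Ifnl2 and Ifnl3 at 0.40.

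On the side of the signal, 14 of 20 interferon genes were measured, 12 of them below the median of every array, and the median difference was 0.05. Their extremes were Ifnab at -0.11 and Ifna14 at 0.12, with unadjusted p = 0.0634 and 0.0940 by limma. The 11 measured receptor and JAK-STAT genes had a median difference of -0.01, between -0.07 for the receptor subunit Ifnar2 and 0.10 for Il10rb, a subunit of the interferon lambda receptor. Nucleic acid sensors and adaptors had a median of -0.03 over 17 genes, between Tlr8, a sensor of single-stranded RNA, at -0.17 and Tbk1, the kinase that activates Irf3, at 0.08. No gene of these 3 groups had an unadjusted p under 0.05.

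Of the other interferon regulatory factors 6 were measured, with a median of 0.03. Irf8, a factor of macrophages and dendritic cells, was at 7.43 and 7.65 in KO testes, against 7.66 and 7.81 in WT testes (log2 difference -0.20, unadjusted p = 0.102, limma). Both KO values lay below both WT values, by 0.01 at the nearest pair. Irf1, which interferon gamma induces, had a difference of 0.13.

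The 46 measured antiviral effectors besides the 9 genes had a median difference of -0.02, and 26 of them had a lower mean in KO testes. All 4 genes of the wider list with a difference of -0.2 or lower were in this group, namely Samd9l, Slfn5, Ifi207 and Ifitm3. They make 2.94% of the measured wider list, against 1.97% of all genes, at a cut-off that was not planned. Ifi207 and Ifitm3 overlapped between the genotypes. Samd9l, a restriction factor, was at 6.10 and 6.31 in KO testes, against 6.31 and 6.57 in WT testes (log2 difference -0.24, unadjusted p = 0.0977, limma). It was lowest in KO replicate 1, as were 22 of the 46 effectors, and highest in WT replicate 2, as were 14 of them. Macrophage markers often had this order too, and their part in the values of Samd9l was not tested. Xaf1, which promotes apoptosis, was at 5.28 and 5.36 in KO testes, against 5.44 and 5.53 in WT testes, a difference of -0.17 (standard error 0.06, unadjusted p = 0.0399, limma). In the other direction, Mx2, a GTPase that inhibits viruses, had a difference of 0.13.

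The 5 genes that attach Isg15 to proteins had a median difference of -0.01. Ube2l6, its conjugating enzyme, was at 5.80 and 5.90 in KO testes, against 6.05 and 5.99 in WT testes, a difference of -0.17 (standard error 0.06, unadjusted p = 0.0408, limma). Uba7, its activating enzyme, had a difference of 0.01. The feedback inhibitors, to which Usp18 belongs by function, had a median difference of 0.0008 over 12 genes, between Ptpn1 at -0.10 and Socs3 at 0.11.

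GTPases, chemokines and antigen presentation genes that interferon gamma induces had a positive difference in 21 of 25 measured genes, with a median of 0.05. The median standard error over all genes was 0.06, and 14 of the 25 lay below the median of every array. The 21 include Nlrc5 at 0.02, which had a negative difference in 16 of its 19 probe sets. Over all genes 43.4% had a negative difference, against 16% of this group. KO pools lay entirely above WT pools in 36% of the group, against 20.3% of all genes. Gbp7, a guanylate-binding protein, was at 6.64 and 6.83 in KO testes, against 6.59 and 6.55 in WT testes (log2 difference 0.16, unadjusted p = 0.0952, limma), and the lowest difference was -0.04, for the proteasome activator Psme1. None of the 25 genes had an unadjusted p under 0.05.

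The brightest genes of the wider list were Arih1 and Pias1. Arih1, a ubiquitin ligase, was at 11.58 and 11.52 in KO testes and 11.52 and 11.60 in WT testes. Pias1, an inhibitor of cytokine signalling, was at 11.41 and 11.38 in KO testes and 11.35 and 11.44 in WT testes. Neither separated the genotypes.

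**Figure D5:**
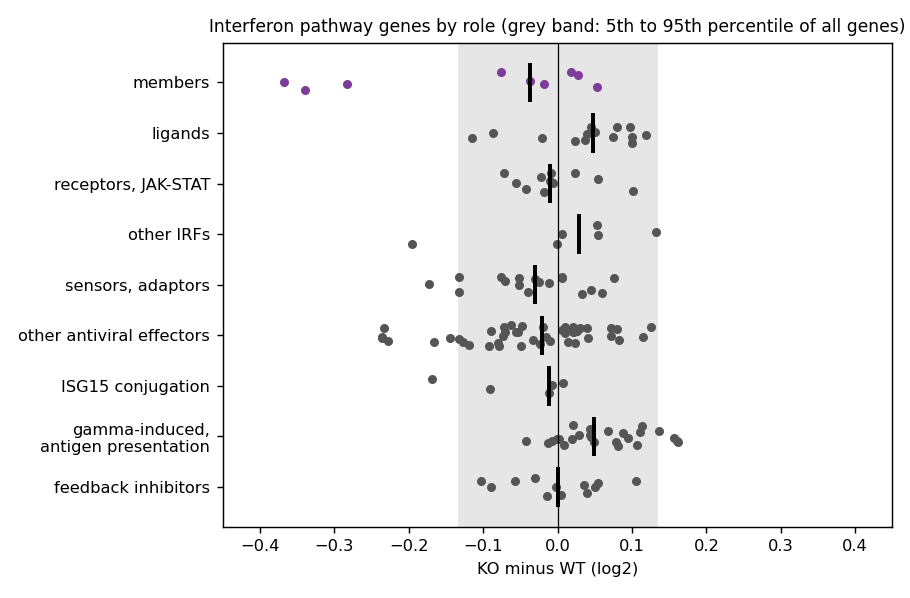
Log2 difference (KO minus WT, x axis) of the 9 interferon response genes (purple) and of 136 other interferon pathway genes in 8 groups by role (grey), with a bar at each median; the shaded band spans the 5th to 95th percentile of all genes. Ifit1, Ifit3 and Usp18 lie left of every other gene shown, and the gamma-induced genes lie mostly right of 0.

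The wider genes were also divided by the promoter letters. An ISRE match was found in 29 of the 109 measured genes that had a window (26.6%), and in 7 of 14 interferon genes, 7 of 16 gamma-induced genes and 12 of 36 antiviral effectors. Genes with a match had a median difference of 0.02, with 10 of 29 negative, and genes without one a median of -0.002, with 42 of 80 negative. Among the members, Isg15, Bst2 and Stat2 carried ISRE letters and overlapped between the genotypes, whereas Ifit1 and Ifit3 carried them and did not overlap. Members with and without overlap thus both carried ISRE letters.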

How the data were processed

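Gene expression was measured in whole testes on 4 arrays, 2 KO and 2 WT, each a pool of 3 mice. The deposited values are log2 signals that the authors made with RMA, and the submitters' notes name Partek 6.13.1224. The paper names the Mouse Gene 1.1 ST array and the labels a 3' IVT labelling kit, and the genome build is not given in the sources used here. Gene names came from the platform annotation and were updated by gene identifier. The table holds 35556 probe sets, 21218 paired with 1 symbol, 1881 with several and 12457 with none here. A gene's value is that of its own probe set with the highest mean.

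KO was compared with WT on the values as deposited with limma 3.58.1 in R 4.3.3 (lmFit and eBayes, prior degrees of freedom 2.96) over the 23099 named probe sets, with Benjamini-Hochberg adjustment over all of them. No low-signal filter was applied. The p-values measure only the spread between pools, and the number of arrays limits precision. The fit was tested on simulated data drawn from its own model, which cannot show that its intervals hold for these pools. Promoter windows came from RefSeq. The members and lists were chosen with earlier results of these data known. Named genes are the members, Azin2, the highest and lowest difference of each interferon pathway list, the 2 brightest genes of the wider list, the 5 nearest profiles and the brightest marker of each cell type list used. Genes named beyond that rule were chosen after their values were seen. Alternatives were an intensity trend, robust eBayes, the ordinary equal-variance test, quantile normalization, array centring, leaving out dim probe sets, testing all probe sets whether named or not, other gene values, a replicate block and each array left out. Figures were drawn with matplotlib 3.10.9.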

Additional observations from a re-analysis of the deposited data

How the results depend on the processing

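None of the 9 genes passed an adjusted p of 0.05 under any alternative, where limma adjusted values ran from 0.920 to 1. Ifit1, Ifit3 and Usp18 had a negative difference under every alternative that measured them, and the 7 changes of sign among the others all came from leaving out 1 array. The differences then ranged from -0.47 to -0.26 for Ifit1, -0.51 to -0.16 for Ifit3, -0.42 to -0.15 for Usp18, -0.16 to 0.0078 for Ifit2, -0.088 to 0.014 for Bst2, -0.10 to 0.067 for Isg15, -0.085 to 0.12 for Irf7, -0.0062 to 0.11 for Stat2 and 0.00045 to 0.05 for Oas2. The sign turned for Bst2 without KO replicate 1 (0.014), for Irf7 (-0.085), Stat2 (-0.0062) and Isg15 (0.067) without KO replicate 2, for Irf7 without WT replicate 1 (-0.046), and for Ifit2 (0.0078) and Isg15 (0.019) without WT replicate 2. The members' median ranged from -0.085 (without KO replicate 2) to 0.0078 (without WT replicate 2). This median was 0.0079 with the filter on dim probe sets, which left 2 genes, Stat2 and Bst2, and so none of Ifit1, Ifit3 and Usp18. That of the wider list ranged from -0.018 to 0.026 when an array was left out. The count of members with an unadjusted p under 0.05, 1 as reported, was 2 with an intensity trend and with robust eBayes (Ifit1 and Ifit3), 0 by the ordinary test and with the filter, which leaves Ifit1 out, and 1 to 3 when an array was left out. It was 3 without KO replicate 1 and without WT replicate 1 (Ifit1, Ifit3 and Usp18). Over all named probe sets, 1 passed an adjusted p of 0.05, 0 by the ordinary test (1154 with an unadjusted p under 0.05), 0 of every probe set of the table (1724 with an unadjusted p under 0.05), and 0 to 2 when an array was left out. At a fold of 1.5 with an unadjusted p under 0.05, 19 passed, with 6 by the ordinary test, 127 over every probe set and 29 to 69 when an array was left out. Azin2, at -2.83, had an adjusted p of 0.868 by the ordinary test and 0.0707 over every probe set. When an array was left out it ranged from -2.94 to -2.72, with an adjusted p of 0.294 without WT replicate 1 and 0.232 without WT replicate 2. The replicate numbers are shared by KO and WT, but whether pools of the same number share litters or processing days is not given. Over all named probe sets, the difference between replicates 1 and 2 in KO correlated with that in WT at -0.08. With the replicate numbers as a block, the member count stayed at 1 and the fold-based count was 24. The cause of these changes was not tested. With 2 pools per genotype, the 95% confidence intervals of Ifit3 and Usp18 included 0.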

Other observations

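Some interferon pathway genes were represented, in part or only, by probe sets that several symbols share. Of 37 such probe sets, which held 31 distinct sets of values, 4 had an unadjusted p under 0.05, all higher in KO testes. Over all named probe sets 4.1% had one, 494 higher and 452 lower in KO testes. The probe set of Ifnl2 and Ifnl3, the genes of interferon lambda, was at 6.45 and 6.13 in KO testes, against 5.90 and 5.88 in WT testes (log2 difference 0.40, unadjusted p = 0.0158, limma). The probe set paired with Ifnl2 alone was at 6.29 and 6.48 in KO testes, against 6.61 and 6.33 in WT testes, a log2 difference of -0.09, so the direction of Ifnl2 differed between its probe sets. A probe set of Tgtp1 and Tgtp2, GTPases that interferon gamma induces, was at 6.37 and 6.34 in KO testes, against 6.02 and 6.20 in WT testes (log2 difference 0.25, unadjusted p = 0.0218, limma), and another of the same genes had a difference of 0.21. The probe set of Irgm2 and Igtp was at 5.49 and 5.39 in KO testes, against 5.23 and 5.24 in WT testes (log2 difference 0.21, unadjusted p = 0.0142, limma). None passed an adjusted p of 0.05. A probe set of Slfn5 and Unc45b was at 8.08 and 5.37 in KO testes, against 5.48 and 5.38 in WT testes, so that 1 KO pool alone set its difference of 1.29. The probe set of Slfn5 alone had a difference of -0.24.

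Nlrc5, an activator of the class I antigen presentation genes, had 19 probe sets. WT replicate 2 was the highest array in 16 of them, and 16 had a negative difference. The median over the 19 was -0.11, and the differences ran from -0.40 to 0.07. Its brightest probe set, which gave the gene's value above, was at 7.37 and 7.42 in KO testes, against 7.31 and 7.44 in WT testes.

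With the profile of Usp18 as the starting point, a choice made after the values were seen, the nearest gene was Fv1, a restriction factor against retroviruses, at a Euclidean distance of 0.0164. Fv1 was at 6.28 and 6.01 in KO testes, against 6.32 and 6.57 in WT testes, a log2 difference of -0.30. Next to Usp18 came Rps19-ps3, 4930402F06Rik, 6430550D23Rik and 2900092C05Rik, at distances between 0.0248 and 0.0513. The 5 nearest to Ifit3 were 6430550D23Rik, Rps19-ps3, 4930402F06Rik, Usp18 and Fv1, at distances between 0.0795 and 0.0901. The nearest gene to Ifit1 was Aldh3a1 at a distance of 0.0657.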
